A study of Mus musculus with 12 samples.

Results

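The chemokine receptor genes described here, in CD11b+ cells of the mouse brain, are Cx3cr1, Ccr1, Ccr2, Ccr7, Ccrl2 and Cxcr4. They were chosen by gene symbol, and make 6 of the 36491 genes in the table of counts. All 6 passed the filter on low counts, which left 18875 genes for testing. Most chemokine receptors pass the signal of a secreted chemokine to inhibitory G proteins and steer the movement of leukocytes. Cx3cr1 is the receptor for the neuronal chemokine fractalkine and is known as a gene of resting microglia, while Ccr2 draws monocytes out of bone marrow towards its ligand Ccl2. Ccr1 binds several inflammatory chemokines, Ccr7 guides dendritic cells and lymphocytes to lymph nodes, Cxcr4 binds Cxcl12 and holds cells in bone marrow, and Ccrl2 is an atypical receptor that binds chemerin without the usual signalling.

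The cells came from brains of wild type C57BL/6J males aged 6 months, all of which had been given a bone marrow transplant. The head was shielded during the procedure in one arm and unshielded in the other, and every animal, controls included, then ate the CSF1 receptor inhibitor PLX5622, which depletes microglia, for 2 weeks and standard chow for 6 weeks. Mice of each arm received 50 µg of the bacterial endotoxin lipopolysaccharide (LPS) or saline into the peritoneum. Cells were collected 6 hours after injection with magnetic beads against CD11b, a surface protein of microglia and of other myeloid cells, so that the host's surviving microglia and cells derived from marrow were collected as a mixture. The 4 groups (shielded without LPS, shielded after LPS, unshielded without LPS, unshielded after LPS) had 3 libraries each. The labels do not say whether the libraries of a group came from separate animals, so the p-values below measure the spread between these libraries, which may be technical.

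The libraries held 18090977 to 60495968 counts, with most in unshielded mice after LPS (at least 56776710). In 2 of the shielded libraries titled as without LPS, numbers 2 and 3, the treatment field names LPS. Groups follow the titles, and values without these libraries are given where a call named here was lost. Leaving them out keeps only library 1 of shielded mice without LPS. A call lost in that fit does not by itself mean a smaller effect. All 10 microglia markers looked at were present, with summed levels of 12268 to 26202 CPM (read counts scaled to a common library size) over the 12 libraries. Markers of T and NK cells summed to at most 2.33 CPM and those of B cells to at most 3.01 CPM. In bulk RNA, fewer cells of a type cannot be told apart from less RNA per cell.

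Levels can be compared between genes only per length of transcript. On the scale of CPM per kilobase of exon, Cx3cr1 was the highest of the 6 genes in all 9 libraries outside the unshielded LPS group, at 891 ± 96.6 (SD, n = 3) in shielded mice without LPS. In that group Ccrl2 followed at 46.2 ± 8.56, Cxcr4 at 25.7 ± 7.64, Ccr1 at 21.6 ± 7.99, Ccr2 at 2.69 ± 0.201 and Ccr7 at 0.603 ± 0.211 CPM per kilobase. The means of Cxcr4 and Ccr1 differed by less than their spread, although Cxcr4 was the higher in each of the 3 libraries. After LPS in shielded mice the order was Cx3cr1 (521 ± 81.9), Ccrl2 (106 ± 10.3), Ccr1 (35.4 ± 5.18), Ccr7 (19.4 ± 5.45), Cxcr4 (15.2 ± 4.04) and Ccr2 (0.907 ± 0.366 CPM per kilobase), with Ccr7 and Cxcr4 within their spread of each other. In unshielded mice without LPS Cxcr4 came next to Cx3cr1, at 122 ± 40 against 596 ± 61.7 CPM per kilobase, before Ccr1 (60.2 ± 10.1), Ccrl2 (53.0 ± 14), Ccr2 (2.11 ± 0.253) and Ccr7 (0.580 ± 0.245). The means of Ccr1 and Ccrl2 lay within their spread there, with Ccr1 the higher in each of the 3 libraries. In unshielded mice after LPS 4 genes stood close together: Cxcr4 was at 159 ± 27.9, Cx3cr1 at 152 ± 42.0, Ccrl2 at 148 ± 44.6 and Ccr1 at 144 ± 13.3 CPM per kilobase. These 4 differed by less than their spread, and Cx3cr1 ranked anywhere from 1 to 4 among the libraries of that group. This closeness rests on the exon lengths, 4.505 kilobases for Cx3cr1 and 1.808 for Cxcr4. Before division by length Cx3cr1 was at 545.5 to 899 CPM there, and Ccr1, Ccrl2 and Cxcr4 reached at most 509 CPM. Whether reads covered the exons evenly was not tested. Ccr7 was the lowest of the 6 without LPS in both arms and Ccr2 the lowest after it.

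**Figure D1:**
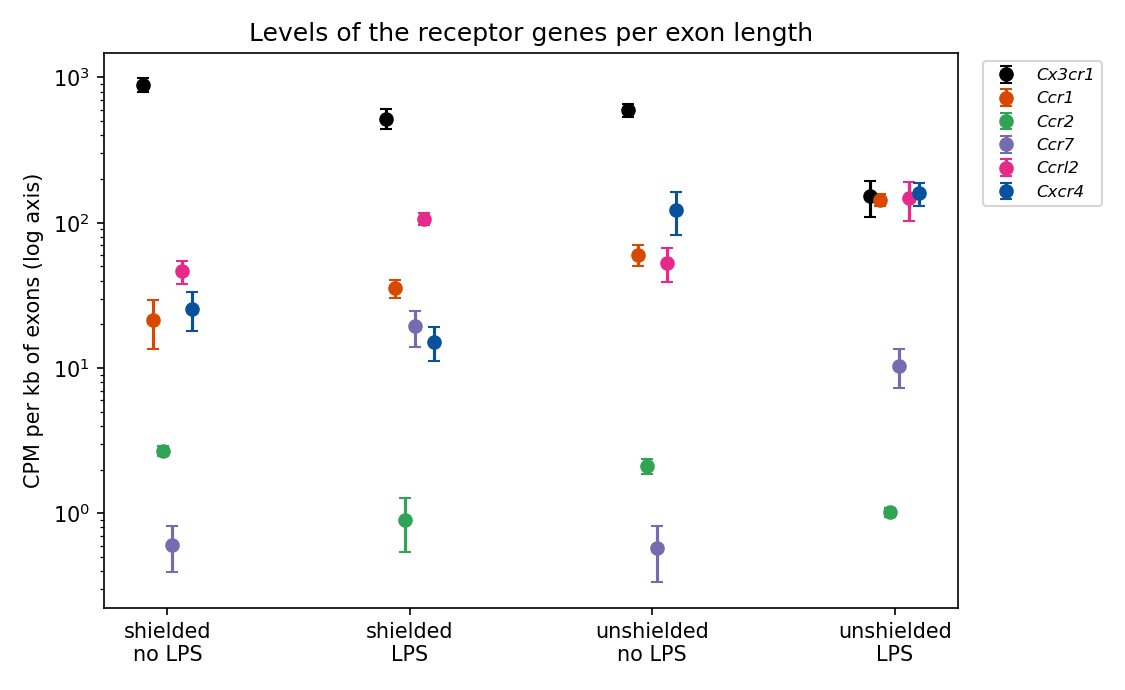
Mean level of each of the 6 receptor genes in each group, in CPM per kilobase of exon on a log axis, with bars for the SD over 3 libraries. Cx3cr1 stands far above the others except in unshielded mice after LPS, where 4 genes lie between 144 and 159.

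Cx3cr1 (ENSMUSG00000052336) was lower after LPS in both arms, and LPS lowered it more in unshielded mice. Its level was 3890.4, 4498 and 3654 CPM in the shielded libraries without LPS and 2754, 2035 and 2249 CPM in those after LPS. Unshielded libraries held 2680.1, 2966 and 2410.4 CPM without LPS and 899, 604 and 545.5 CPM after it. The groups with and without LPS did not overlap in either arm, and the unshielded LPS libraries were below every other library. LPS gave a log2 fold change of -0.77 ± 0.18 in shielded mice (SE; edgeR adjusted p = 0.00243), a 1.71-fold lower level, and of -1.98 ± 0.19 in unshielded mice (adjusted p = 4.95e-06), a 3.93-fold lower level. The test of the difference between these effects gave -1.20 ± 0.25 (edgeR adjusted p = 0.0101), and -1.25 (adjusted p = 0.0979) without the libraries whose labels conflict. After LPS the unshielded level was 3.44-fold below the shielded one (log2 difference -1.78 ± 0.18, edgeR adjusted p = 1.72e-05). Without LPS the values of the arms did not overlap either, but the difference of -0.58 ± 0.18 missed the threshold (edgeR adjusted p = 0.0605, 95% interval -0.97 to -0.19). It passed with DESeq2 (-0.57, adjusted p = 0.025), without a filter on low counts (-0.62, adjusted p = 0.0172), with a block for the replicate number (-0.58, adjusted p = 0.0326) and in a fit of these 2 groups alone (-0.56, adjusted p = 0.0143).

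Markers of microglia other than Cx3cr1 summed to 22099 to 26202 CPM in shielded mice without LPS and 17012 to 19574 CPM after it. In unshielded mice they summed to 13069 to 15633 and 12268 to 13372 CPM. LPS lowered 8 of these 10 markers in shielded and 7 of 10 in unshielded mice and raised 1 in each, and 9 of 10 were lower in unshielded than in shielded mice without LPS and 8 of 10 after it. Without the libraries whose labels conflict, 4 of 10 passed as lower with LPS in shielded mice, 7 in unshielded mice and 5 between the arms without LPS. The marker raised in both arms was Fcrls, and 0 passed as higher with LPS in either arm without those libraries. With library totals the changes of Fcrls were 0.0038 and 0.033 (edgeR adjusted p = 0.97 and 0.755). The difference of LPS effects that Cx3cr1 showed was not seen in this list, whose median difference was 0.02, with 1 of 10 passing as higher and 0 as lower in edgeR (3 and 0 at unadjusted p under 0.05, 3 and 0 with DESeq2). Of the exon bases of Cx3cr1, 78 of 4505 overlap the antisense gene Gm33858, whose reads cannot be told apart from it where counting ignores strand.

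**Figure D2:**
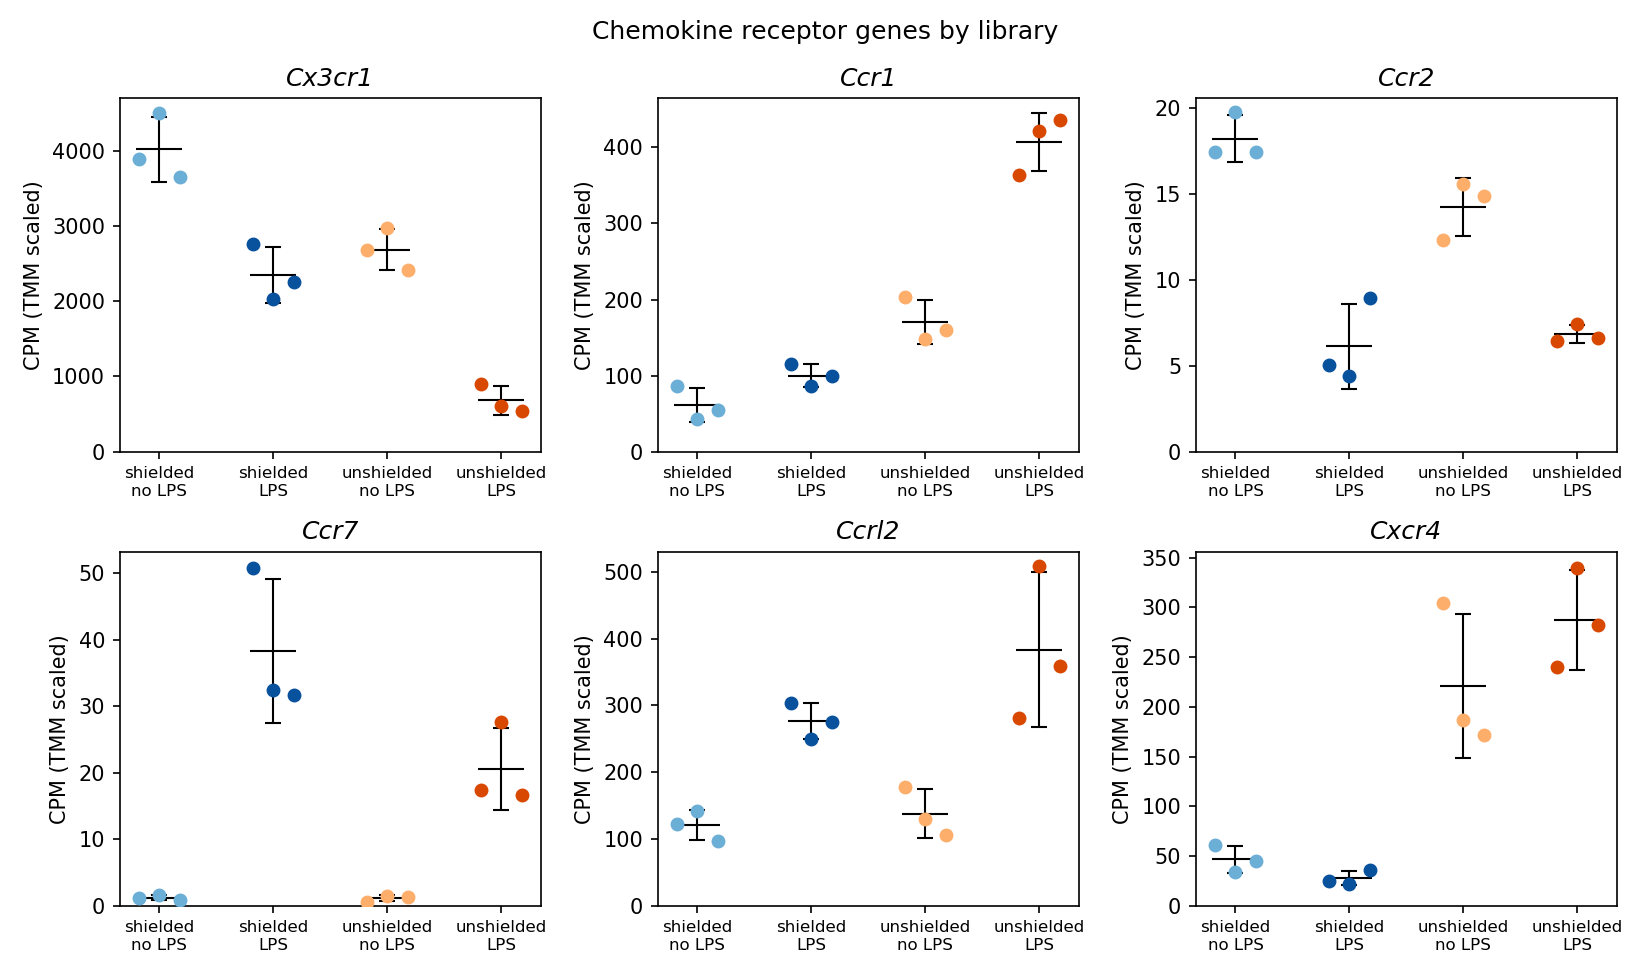
CPM of the 6 receptor genes in each of the 12 libraries, by group, on linear axes from 0, with a horizontal line at each group mean and bars for the SD (n = 3). All Ccr7 values after LPS are at least 16.6 CPM and all others at most 1.62, every unshielded Cxcr4 value is above every shielded one, and Cx3cr1 is lowest in the 3 unshielded LPS libraries.

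Among the receptors for inflammatory CC chemokines, Ccr1 (ENSMUSG00000025804) was higher in unshielded mice with and without LPS. Shielded libraries held 86.4, 42.7 and 54.3 CPM without LPS and 115, 86.1 and 99.1 CPM after it, and unshielded libraries 203, 148 and 160.3 CPM without LPS and 364, 421 and 436 CPM after it. Every unshielded library was above every shielded library, and shielded library 1 without LPS was level with the lowest shielded LPS library. Unshielded mice had 2.79-fold more Ccr1 without LPS (log2 difference 1.48 ± 0.23, edgeR adjusted p = 0.00142) and 4.06-fold more after it (2.02 ± 0.23, adjusted p = 3.9e-05). Without the libraries whose labels conflict, the difference without LPS was 0.97 (edgeR adjusted p = 0.0591). LPS raised Ccr1 2.39-fold in unshielded mice (1.25 ± 0.22, edgeR adjusted p = 0.000808), where the groups did not overlap.

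The rise of Ccr1 with LPS in shielded mice was less secure. Its log2 fold change of 0.71 ± 0.22 passed the edgeR threshold (adjusted p = 0.0144). Scaling to library totals instead of TMM gave 0.36 (adjusted p = 0.144), and the call also failed without a low-count filter (0.66, adjusted p = 0.102) and when the libraries whose labels conflict were left out (0.22, adjusted p = 0.422). The LPS effects of the arms differed by 0.54 ± 0.31 (edgeR adjusted p = 0.272, 95% interval -0.14 to 1.23).

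Ccr2 (ENSMUSG00000049103), the Ccl2 receptor of monocytes, fell with LPS in both arms. It stood at 17.4, 19.8 and 17.4 CPM in shielded libraries without LPS and at 5.03, 4.39 and 8.96 CPM after it. Unshielded libraries held 12.3, 15.6 and 14.9 CPM without LPS and 6.47, 7.45 and 6.64 CPM after it. No library after LPS reached the lowest library without it, and shielded LPS library 3 was the highest of those after LPS. The level was 2.96-fold lower after LPS in shielded mice (log2 fold change -1.57 ± 0.22, edgeR adjusted p = 4.58e-05) and 2.08-fold lower in unshielded mice (-1.05 ± 0.21, adjusted p = 0.00157). The arms differed by -0.36 ± 0.21 without LPS (edgeR adjusted p = 0.375, 95% interval -0.81 to 0.10), although their values did not overlap, and by 0.16 ± 0.21 after LPS (adjusted p = 0.56, interval -0.31 to 0.62). The difference of LPS effects was 0.51 ± 0.30 (edgeR adjusted p = 0.277, 95% interval -0.14 to 1.16). Both of these last comparisons rested on shielded LPS library 3, without which they were 0.48 (adjusted p = 0.015) and 0.83 (adjusted p = 0.00714).

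Other monocyte genes went the opposite way. The 9 monocyte markers, Ccr2 not among them, summed to 169 to 216 CPM without and 629 to 732 CPM with LPS in shielded mice, and to 215 to 232 and 433 to 605 CPM in unshielded mice. LPS raised 5 of the 8 tested in shielded and 7 of 8 in unshielded mice, such as Ly6c2 (2.14 and 3.76 on the log2 scale) and Plac8 (2.67 and 3.54), and lowered Ace in both (-0.78 and -1.03). The fall of Ace in shielded mice was -0.54 (edgeR adjusted p = 0.128) without the libraries whose labels conflict. How far these cells contribute to the Ccr2 values was not tested. Of the 50-base stretches of Ccr2 exons, 1.91% also occur in other genes, so a small share of reads could match more than 1 gene.

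Of the homing receptors, Ccr7 (ENSMUSG00000037944) had the largest LPS response of the 6 genes in both arms. It was near the bottom of detection without LPS, at 1.19, 1.62 and 0.78 CPM in shielded and 0.593, 1.49 and 1.35 CPM in unshielded libraries, from 26 to 55 counts each. After LPS it was at 50.8, 32.4 and 31.8 CPM in shielded and 17.4, 27.6 and 16.6 CPM in unshielded libraries. All 6 LPS libraries were far above all 6 others, including the shielded libraries 2 and 3 whose treatment field names LPS, which sat among those without it. LPS raised Ccr7 32.7-fold in shielded mice (log2 fold change 5.03 ± 0.38, edgeR adjusted p = 6.74e-07) and 18.7-fold in unshielded mice (4.23 ± 0.38, adjusted p = 7.07e-06).

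After LPS the unshielded libraries held less Ccr7 than the shielded ones, without overlap. The log2 difference was -0.90 ± 0.30 (edgeR adjusted p = 0.0316), a 1.87-fold lower level. Leaving out shielded LPS library 1 ended this call (-0.68, adjusted p = 0.112), as did leaving out unshielded LPS library 1 (-0.84, adjusted p = 0.0966) or 3 (-0.78, adjusted p = 0.117) or the filter on low counts (-0.86, adjusted p = 0.121). Without LPS the arms differed by -0.09 ± 0.41 (edgeR adjusted p = 0.946, 95% interval -1.0 to 0.81), and the LPS effects differed by -0.81 ± 0.51 (adjusted p = 0.318, interval -1.94 to 0.32).

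Ccr7 is a known gene of migratory dendritic cells, and 8 markers of these cells were read beside it. They summed to 440 to 582 CPM without and 519.6 to 911 CPM with LPS in shielded mice, and to 99.7 to 212 and 157.5 to 197 CPM in unshielded mice. Of the 7 tested, LPS raised 2 and lowered 2 in shielded mice, and raised 3 and lowered 2 in unshielded mice. In unshielded against shielded mice without LPS 1 was higher, Flt3 (1.19 on the log2 scale), and 1 lower, Fscn1 (-1.98). Without the libraries whose labels conflict these were 1.24 and -1.80, and neither call was kept. After LPS 1 marker was higher and 2 lower. The sums hold unlike amounts of each marker, so they need not follow the list as a whole. The chemokines Ccl22 (4.02 and 3.50 on the log2 scale in shielded and unshielded mice) and Ccl17 (4.64 and 3.90) rose with LPS. The transcription factor Zbtb46 was at 2.71 to 7.56 CPM in all libraries and fell in unshielded mice by 0.95 on the log2 scale. Flt3 fell in shielded mice (-0.98) and rose in unshielded mice (1.90). None of the 8 was at 0 in every library of a group, and Il4i1 did not exceed 0.217 CPM. Their part in the Ccr7 values was not tested.

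Cxcr4 (ENSMUSG00000045382), the Cxcl12 receptor, showed the largest difference between the arms. Shielded libraries held 60.9, 33.4 and 44.9 CPM without LPS and 24.9, 21.9 and 35.8 CPM after it. Unshielded libraries held 304, 187 and 172 CPM without LPS and 239.7, 340.1 and 282 CPM after it. The lowest unshielded library was above the highest shielded library, whatever the injection. The difference was 4.76-fold without LPS (log2 difference 2.25 ± 0.28, edgeR adjusted p = 0.000572) and 10.4-fold after it (3.38 ± 0.30, adjusted p = 1.22e-05). Without the libraries whose labels conflict, the first was 1.85 (edgeR adjusted p = 0.0588).

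With LPS, Cxcr4 passed the test in shielded mice alone, and the arms were not shown to differ in this effect. In shielded mice the log2 fold change was -0.75 ± 0.28 (edgeR adjusted p = 0.0323), with 1 shielded library without LPS inside the range of those after LPS. The call ended when shielded LPS library 1 (-0.68, adjusted p = 0.0932) or 2 (-0.61, adjusted p = 0.11) was left out. It also ended when library 1 (-0.50, adjusted p = 0.132) or 3 (-0.76, adjusted p = 0.0587) of the shielded mice not given LPS was left out, and with no low-count filter (-0.80, adjusted p = 0.112). Without both libraries whose labels conflict it was -1.14 (adjusted p = 0.023). In unshielded mice the change was 0.38 ± 0.27 (edgeR adjusted p = 0.275, 95% interval -0.22 to 0.97). The difference of LPS effects, 1.13 ± 0.39, missed the edgeR threshold (adjusted p = 0.08, 95% interval 0.28 to 1.99). It passed with DESeq2 (1.11, adjusted p = 0.0187), without shielded LPS library 3 (1.31, adjusted p = 0.029) and when library 1 of unshielded mice not given LPS was left out (1.39, adjusted p = 0.0333).

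Markers of marrow-derived brain macrophages were, like Ccr1 and Cxcr4, higher in unshielded mice. The 8 markers, Apoe the most abundant, summed to 8025 to 26615 CPM in shielded mice without LPS and 3715 to 5775 CPM after it, against 64246 to 97308 and 87855 to 115270 CPM in unshielded mice. All 8 were higher in unshielded mice in both comparisons, and without the libraries whose labels conflict 5 of 8 passed in the comparison without LPS and 8 of 8 in that after it. With LPS in shielded mice 6 of the 8 fell and 2 rose (median log2 change -1.26), while Ccr1 rose and Cxcr4 fell. In unshielded mice 3 rose and 1 fell (median 0.26). Within shielded mice without LPS the sums were 26615, 8025 and 13208 CPM for libraries 1 to 3, the order of their Ccr1 and Cxcr4 values, but in each of the other 3 groups 1 of these 2 genes followed the order of the sums and 1 did not. The part of these cells in the Ccr1 and Cxcr4 values was not tested.

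**Figure D3:**
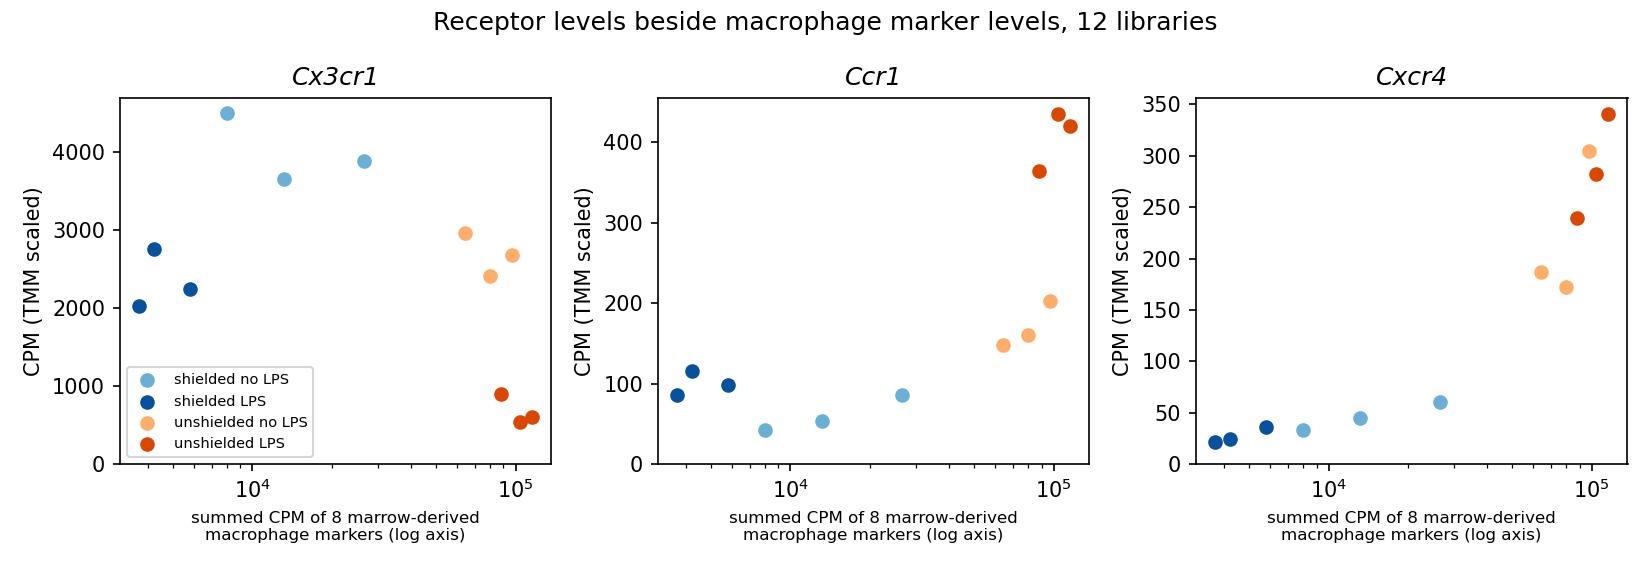
CPM of Cx3cr1, Ccr1 and Cxcr4 (y axes, linear) against the summed CPM of 8 markers of marrow-derived macrophages (x axes, log) in the 12 libraries, coloured by group. The marker sum is at least 64246 CPM in every unshielded library and at most 26615 CPM in every shielded library, and the 3 unshielded LPS libraries have the lowest Cx3cr1 and the highest Ccr1.

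The atypical receptor Ccrl2 (ENSMUSG00000043953) rose with LPS in both arms. Shielded libraries held 122, 141 and 96.9 CPM without LPS and 303, 249.7 and 275.5 CPM after it, and unshielded libraries 177, 130.1 and 106 CPM without LPS and 281, 509 and 359 CPM after it. Every LPS library was above every library without it, and unshielded LPS library 2 was the highest. The rise was 2.30-fold in shielded mice (log2 fold change 1.20 ± 0.23, edgeR adjusted p = 0.000857) and 2.78-fold in unshielded mice (1.48 ± 0.23, adjusted p = 0.000377), and these effects differed by 0.27 ± 0.32 (adjusted p = 0.583, 95% interval -0.44 to 0.99). The arms differed by 0.20 ± 0.23 without LPS (edgeR adjusted p = 0.726, 95% interval -0.31 to 0.70). After LPS they differed by 0.47 ± 0.23 (edgeR adjusted p = 0.111, 95% interval -0.03 to 0.98), and by 0.54 (adjusted p = 0.039) when scaled to library totals.

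The stretches before the start sites of 3 genes are printed because these genes set the patterns apart: Ccrl2 rose with LPS in both arms, Cx3cr1 fell in both, and Cxcr4 differed by shielding. Each is 250 bases, 5′ to 3′ on the gene's strand, ending just before the transcription start, from RefSeq on GRCm38.p6, which is not the build of the counts. Windows matched 5 of the 6 genes by symbol, and of the 3 for Ccrl2 the most upstream is shown. Capitals mark matches on either strand to NF-kB-like GGGNNNNNCC or to the TATA box TATAAA, and overlapping matches are merged. Ccrl2 lies at chr9:111057519-111057768, Cx3cr1 at chr9:120068297-120068546 and Cxcr4 at chr1:128592300-128592549, all on the minus strand.
Ccrl2: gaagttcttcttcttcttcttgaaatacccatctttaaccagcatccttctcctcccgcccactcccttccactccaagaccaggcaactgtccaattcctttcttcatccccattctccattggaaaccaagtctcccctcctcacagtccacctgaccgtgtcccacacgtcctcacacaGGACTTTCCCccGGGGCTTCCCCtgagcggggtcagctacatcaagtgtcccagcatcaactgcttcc
Cx3cr1: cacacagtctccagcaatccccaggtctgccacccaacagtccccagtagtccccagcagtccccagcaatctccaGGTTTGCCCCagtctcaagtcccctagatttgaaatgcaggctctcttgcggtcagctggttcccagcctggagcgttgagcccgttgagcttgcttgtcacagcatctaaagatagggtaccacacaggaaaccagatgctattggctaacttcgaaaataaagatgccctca
Cxcr4: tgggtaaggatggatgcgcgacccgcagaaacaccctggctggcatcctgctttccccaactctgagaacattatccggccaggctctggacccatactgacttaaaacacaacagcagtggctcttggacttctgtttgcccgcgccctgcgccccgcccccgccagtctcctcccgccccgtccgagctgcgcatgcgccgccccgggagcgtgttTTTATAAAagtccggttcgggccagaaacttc
The Ccrl2 window shown held 3 overlapping or neighbouring NF-kB-like matches, starting at positions -68, -56 and -55 from its start site. The Ccrl2 windows not shown held no such match. Cx3cr1 held 1 at -174. Such a match was in 45.8% of all 32851 windows of this length, so it is a common feature. The Ccrl2 match at -68 is the exact string GGGAAAGTCC on the opposite strand, found in 39 windows (0.119%); this string was looked up after the match was seen. Cxcr4 had a TATA box at -30 that overlaps its reverse form at -32 (12.4% of windows) and no NF-kB-like match. Ccr1 had 1 NF-kB-like match at -74 and Ccr2 none. The interferon-response-like GAAANNGAAA (2.98% of windows), AP-1-like TGANTCA (6.75%) and PU.1-like GAGGAAG (10.6%) were in none of these windows. Binding was not measured, so these are descriptions of the letters alone.

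As a set, all 6 receptors passed the edgeR threshold for LPS in shielded mice, 3 higher (Ccr1, Ccr7, Ccrl2) and 3 lower (Cx3cr1, Ccr2, Cxcr4), in a comparison where 67.5% of all tested genes did (32.4% higher, 35.1% lower). In unshielded mice 5 passed, 3 higher and 2 lower, against 43.1% of all genes (24.3% higher, 18.8% lower). Between the arms without LPS 2 passed, Ccr1 and Cxcr4, both higher in unshielded mice, against 10.8% of genes (3.98% higher, 6.85% lower). After LPS 4 passed, with Ccr1 and Cxcr4 higher and Cx3cr1 and Ccr7 lower, against 44.6% (19.1% higher, 25.6% lower). The LPS effects differed for 1, Cx3cr1, against 13.3% (4.06% with a positive and 9.25% with a negative difference). The values of the groups did not overlap for 4 of the 6 with LPS in shielded mice (69.8% of all genes), 5 in unshielded mice (61.4%), 4 between the arms without LPS (33.6%) and 4 after LPS (49.5%). The 2 LPS comparisons share no libraries, but each comparison between arms uses 1 group from each LPS comparison.

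The median log2 change of the 6 was -0.02 for LPS in shielded mice and 0.82 in unshielded mice, beside -0.14 and -0.06 over all tested genes. Between the arms it was 0.05 without LPS and 0.32 after it, beside -0.00 and 0.07. Over all genes, 6119 were higher and 6619 lower with LPS in shielded mice, and 4585 and 3543 in unshielded mice. With library totals in place of TMM these splits were 4042 and 9131, and 2656 and 6520, and the medians of all genes -0.49 and -0.36. None of the 6 receptors changed direction in any comparison under library totals.

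**Figure D4:**
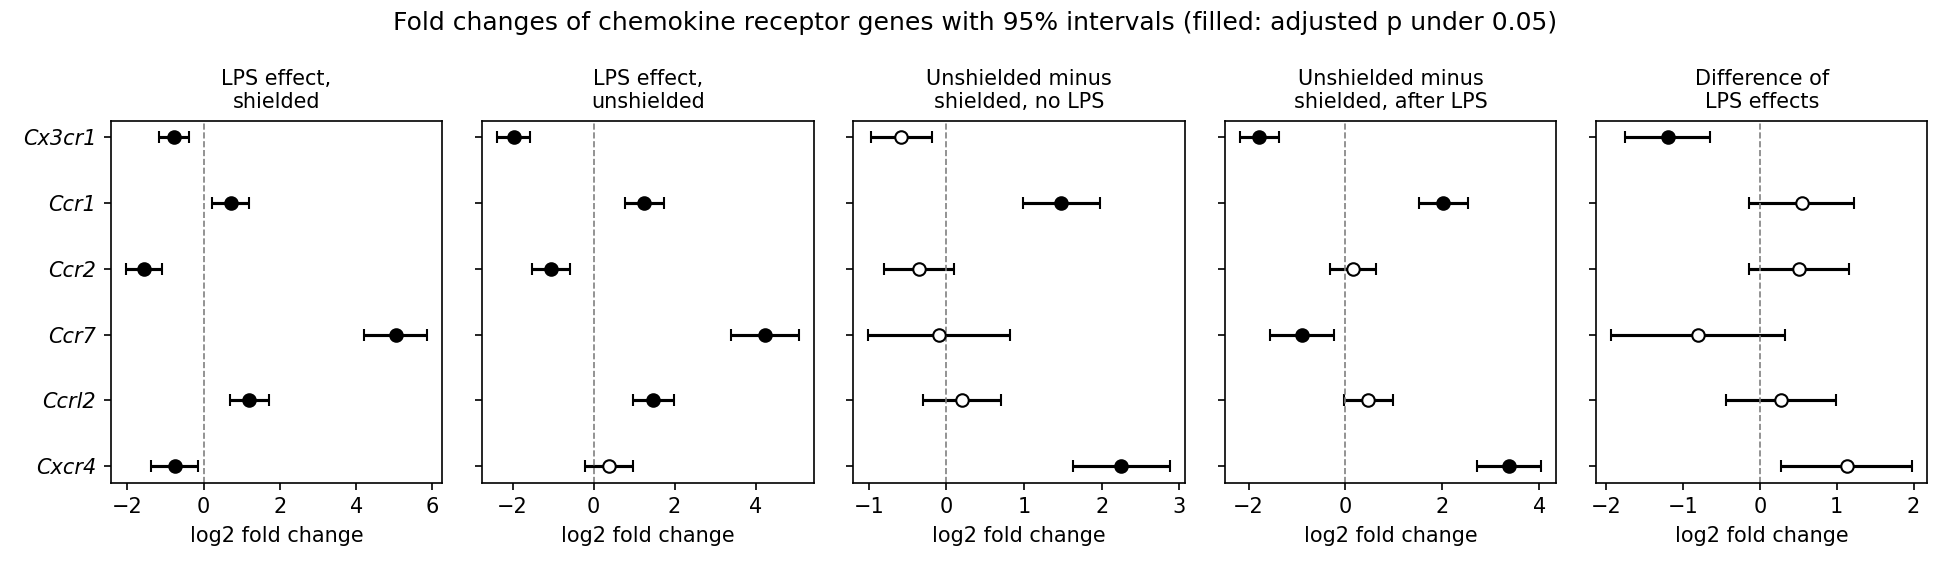
Log2 fold changes of the 6 receptor genes in the 4 group comparisons and the difference of LPS effects, with bars for 95% intervals, filled points for edgeR adjusted p under 0.05 and an x scale of its own in each panel. Ccr7 and Ccrl2 lie right of 0 and Cx3cr1 and Ccr2 left of 0 in both LPS panels, while Cxcr4 has the largest values where unshielded mice are compared with shielded ones.

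Of 18 other chemokine receptor genes, 13 could be tested. LPS raised 3 and lowered 4 in shielded mice, and raised 3 and lowered 3 in unshielded mice, with median log2 changes of 0.27 and -0.05. Without the libraries whose labels conflict 2 were raised and 4 lowered in shielded mice. In unshielded against shielded mice 1 was higher (Cxcr3) and 1 lower (Ccr6) without LPS, and both calls were lost without those libraries (edgeR adjusted p = 0.462 and 0.0804). After LPS 1 was higher and 3 lower, and 1 and 2 without those libraries.

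Cxcr2, a receptor of neutrophils, rose with LPS by 2.72 ± 0.35 in shielded and 2.93 ± 0.36 in unshielded mice (edgeR adjusted p = 2.92e-05 and 4.83e-05). The 10 neutrophil markers summed to 167 to 389 CPM without and 296 to 506 CPM with LPS in shielded mice. In unshielded mice they summed to 52.3 to 159 and 270.04 to 1027 CPM. LPS raised 1 and lowered 1 of the 10 in shielded mice, with a median log2 change of -0.45. Without the libraries whose labels conflict these counts were 0 and 0. In unshielded mice LPS raised 5 and lowered 0 (median 1.81). The part of neutrophils in the rise of Cxcr2 was not tested. Cmklr1, which like Ccrl2 binds chemerin, rose by 0.78 ± 0.14 in each arm (adjusted p = 0.000486 and 0.000865), and by 0.42 and 0.47 with library totals. Ccr10 fell in both arms (-1.59 and -1.51 on the log2 scale), as did Ccr1l1 (-1.88 and -2.68), both from levels of about 1 CPM or less. Cxcr3 was at 2.61, 1.71 and 1.93 CPM without and 0.0603, 0.0791 and 0.352 CPM with LPS in shielded libraries, and at 6.70, 5.83 and 4.81 and then 1.10, 0.546 and 0.504 CPM in unshielded libraries, with no overlap in either arm.

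**Figure D5:**
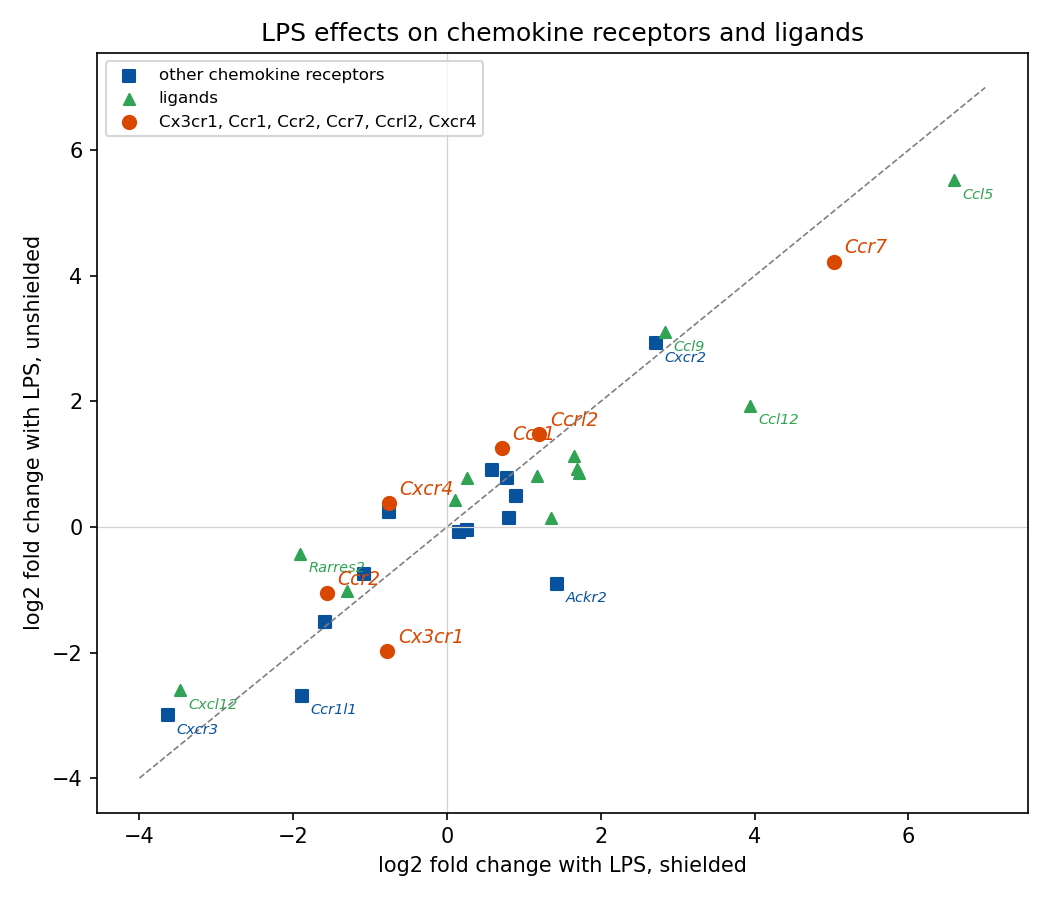
Log2 fold change with LPS in shielded mice (x axis) against unshielded mice (y axis) for the 6 receptors (circles), the 13 other receptors tested (squares) and 13 ligands (triangles), with a dashed line of equal effects. Cx3cr1 lies at -0.77 and -1.98, Cxcr4 at -0.75 and 0.38, and Ccl5 is the only gene plotted beyond Ccr7 on either axis.

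Of 15 ligands of these receptors 13 were tested, and LPS raised 8 in each arm and lowered 3 in shielded and 2 in unshielded mice. In shielded mice the counts were 7 and 3 with the replicate block, where Ccl7 lost its call (1.11, edgeR adjusted p = 0.0604), and 8 and 2 without the libraries whose labels conflict, where Rarres2 lost its call (-1.34, adjusted p = 0.0683). The median log2 changes were 1.35 and 0.81. Ligands of Ccr1 and Ccr2 led the rise. Ccl5 rose by 6.60 ± 0.55 and 5.53 ± 0.53, Ccl9 by 2.84 ± 0.20 and 3.11 ± 0.20, and Ccl12, a ligand of Ccr2, by 3.94 ± 0.25 and 1.93 ± 0.23 on the log2 scale (edgeR adjusted p at most 4.81e-05). Cxcl12, the ligand of Cxcr4, fell in both arms (-3.47 and -2.60), from 14.9 to 21.6 CPM without LPS to 1.09 to 2.24 CPM in shielded mice and from 26.0 to 33.0 to 2.75 to 6.20 CPM in unshielded mice. Cx3cl1, the ligand of Cx3cr1, fell in shielded mice (-1.31 ± 0.33, edgeR adjusted p = 0.00555). Its fall in unshielded mice (-1.01 ± 0.33, adjusted p = 0.0268) did not hold when library 2 of that group (-0.83, adjusted p = 0.131) or of its controls (-0.87, adjusted p = 0.0801) was dropped, or with no low-count filter (-0.96, adjusted p = 0.112).

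Cxcl12 and Cx3cl1 are known mainly as products of cells other than microglia, among them endothelial cells and neurons. Endothelial markers summed to 175 to 301 CPM without and 114.5 to 139.7 CPM with LPS in shielded mice, and to 243 to 269 and 110.01 to 169.8 CPM in unshielded mice. Neuronal markers summed to 176 to 316 and 30.2 to 152 CPM in shielded mice, and to 256 to 293 and 106 to 202 CPM in unshielded mice. Of 6 neuronal markers LPS lowered 6 in shielded mice (3 without the libraries whose labels conflict) and 0 in unshielded mice. Of 6 endothelial markers it lowered 4 and raised 1 in shielded mice (3 and 1 without those libraries). In unshielded mice it lowered 5 of these and raised 1. Astrocyte markers summed to 186 to 214 CPM without and 244 to 291 CPM with LPS in shielded mice. In unshielded mice they summed to 185 to 220 and 140 to 195 CPM. Of 5 astrocyte markers LPS raised 2 and lowered 1 in shielded mice, and raised 1 and lowered 1 in unshielded mice. The 2 rises in shielded mice, Gfap and Slc1a3, did not pass with library totals (edgeR adjusted p = 0.106 and 0.0519). The part of these cells in the falls of Cxcl12 and Cx3cl1 was not tested. Between the arms, Ccl9 was lower in unshielded mice without LPS (-1.80 ± 0.19, edgeR adjusted p = 0.000229) and after it (-1.53 ± 0.19, adjusted p = 5.39e-05), and Ccl12 was lower after it (-2.0 ± 0.23, adjusted p = 4.66e-05). Cxcl12 was higher in unshielded mice after LPS (1.51 ± 0.32, edgeR adjusted p = 0.00252). In all, 0 ligands were higher and 2 lower without LPS (1 higher and 3 lower at unadjusted p under 0.05, 0 and 3 with DESeq2), and 3 were higher and 7 lower after it.

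Genes that carry or end the receptors' signal went both ways. Of 20 tested, LPS raised 7 and lowered 7 in shielded mice and raised 8 and lowered 6 in unshielded mice (5 and 7, and 8 and 5, without the libraries whose labels conflict). Pik3r5, a regulator of the PI3-kinase that answers G proteins, rose by 2.04 ± 0.24 and 1.79 ± 0.24 on the log2 scale. Arrb1, an arrestin that uncouples receptors, fell in both arms (-1.82 and -1.43), as did the G protein brakes Rgs10 (-1.13 and -0.93) and Rgs2 (-1.61 and -1.08; edgeR adjusted p at most 0.000107 for these 4 genes). Between the arms without LPS 5 were higher and 2 lower, but without those libraries all 5 higher calls and 1 of the lower ones were lost. Rgs18 (1.88 ± 0.30) and the receptor kinase Grk6 (0.98 ± 0.17) were among those lost (edgeR adjusted p = 0.137 and 0.172), as were Rgs1 (0.308), Rgs14 (0.312), Grk3 (0.32) and Plcb2 (0.218), while Rgs10 was lower (-0.74 ± 0.10, adjusted p = 0.000613). After LPS 7 were higher and 8 lower, with Grk6 at 1.80 ± 0.17, Rgs18 at 3.12 ± 0.34 and Gnai3, an inhibitory G protein subunit, at -0.73 ± 0.09. The proteases Adam10 and Adam17, which release membrane-bound fractalkine, rose with LPS by 1.09 and 1.38 in shielded and by 1.01 and 0.81 in unshielded mice, and by 0.51 for Adam17 in unshielded mice with scaling to library totals. Of the 4 cleavage genes 3 rose and 1, Dpp4, fell in each arm, but the rise of Ctss in shielded mice (0.28 ± 0.10, edgeR adjusted p = 0.0293) turned to -0.07 (adjusted p = 0.405) with library totals and was 0.17 (adjusted p = 0.399) without the libraries whose labels conflict. That rise did not pass with the low-count filter dropped (edgeR adjusted p = 0.237), with library 1 or 2 of the LPS-treated shielded mice left out (0.0692 and 0.0829), or with library 2 or 3 of those not given LPS left out (0.0607 and 0.103). The fall of Dpp4 in unshielded mice was lost without library 1 or 2 of those given LPS (edgeR adjusted p = 0.0564 and 0.0733) or library 2 or 3 of those not given it (0.0676 and 0.0611).

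The genes whose log2 CPM followed each receptor most closely over the 12 libraries were found among 9271 candidates. Pearson's r is a description here, since the libraries share their groups and 4 groups set most of it. Cx3cr1 was followed by Rp2 (0.988), Pdgfb (0.987) and Mid1ip1 (0.985). Ccr1 was followed by Rasa2 (0.984), Cyp4f16 (0.983) and Aoah (0.983), and Cxcr4 by Cpne2 (0.994), Rftn1 (0.993) and Emilin1 (0.992). Ccr7 was followed by Il15ra (0.994), Eif2ak2 (0.993) and Slfn8 (0.992), and Ccrl2 by Dusp1, Osm and Ets2 (0.973 each). Ccr2 had the least close neighbours, Tmco6 (0.980), Nav2 (0.966) and Sfi1 (0.965).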

How the data were processed

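The authors deposited 1 table of whole-number read counts by Ensembl gene and library, per the file headers, in which each row has at least 2 counts over all libraries. The tools were FastQC, STAR and HTSeq and the mouse build mm9, per the submitters' processing notes. Their versions, the annotation and any use of strand were not given in the sources used here. RNA was linearly amplified, per the labels' protocols, so amplification is part of the spread between libraries. Gene symbols were looked up in a reference table, which lacked 254 of the identifiers.

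EdgeR 4.0.16 in R 4.3.3 was fitted to all 12 libraries (quasi-likelihood, robust, TMM, two-sided, Benjamini-Hochberg adjustment over 18875 genes, threshold 0.05) after filterByExpr (minimum count 10, total 15). SE is the absolute log2 fold change over the root of F. CPM are TMM-scaled, and the prior count for log2 CPM was 2. Exon lengths came from GENCODE M21 on GRCm38. Libraries of a group were not copies (chi-square per degree of freedom at least 11.2).

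The members and lists were chosen with earlier results of these data known. Of each list up to 3 called genes per direction with the smallest adjusted p may be named, any other receptor or ligand, and for each member the 3 genes of highest Pearson r among named genes with mean log2 CPM of at least 3. Some were left out for length, and 1 gene of the list of other receptors is not reported here. Marker genes are given with the receptor they bear on.

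Deviations of same-numbered shielded libraries with and without LPS from their group means correlated across genes at 0.112, 0.194 and 0.547. Other pairs of groups gave -0.264 to 0.478. The labels do not say that the titles' numbers mark a shared batch. The main fit therefore used no pairing, and a replicate block was tried as an alternative. On simulated counts edgeR found 53% of changes of 2-fold and 80% of those of 4-fold for LPS in shielded mice, 51% and 84% in the unshielded arm, 54% and 89% between arms without LPS, and 54% and 87% after it, with 7 to 11 false calls among 18875 genes of which 200 were changed. In the data 2043 to 12738 genes passed in these comparisons, so the simulated shares and false calls may not hold there. Alternatives were library totals, DESeq2 1.42.0, other low-count filters (none, or 1 CPM in 3 libraries), leaving out libraries, only the groups compared, a replicate block and other readings of the conflicting labels.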

Additional observations from a re-analysis of the deposited data

Results flagged for a closer look

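Between shielded and unshielded mice the LPS effect differed by an interaction test in edgeR for 1 of the 6 receptors and 7 of the 50 tested genes of their pathway lists (14%), beside 13.3% of all tested genes, a share close to that of all genes. The difference (unshielded minus shielded, log2) was -1.20 for Cx3cr1 (adjusted p = 0.0101), from effects of -0.77 in shielded and -1.98 in unshielded mice. It was -2.01 for Ccl12 (adjusted p = 0.00322), -0.76 for Mif (adjusted p = 0.0496), -0.57 for Gnai3 (adjusted p = 0.0121) and -0.57 for Adam17 (adjusted p = 0.0484), all of which LPS raised more in shielded mice. It was 0.65 for Gng2 (adjusted p = 0.0156), 0.82 for Grk6 (adjusted p = 0.0363) and 0.88 for Rgs14 (adjusted p = 0.0237). LPS lowered Gng2 and Rgs14 in shielded mice (-0.60 and -1.11) and gave 0.05 and -0.23 in unshielded mice, and it raised Grk6 in unshielded mice (1.11). Leaving out single libraries also ended calls, with adjusted p up to 0.109 for Mif (9 of 12 libraries), 0.1 for Grk6 (9 of 12), 0.0661 for Rgs14 (9 of 12), 0.1 for Adam17 (10 of 12) and 0.0531 for Gng2 (2 of 12). None of these calls was kept without the 2 libraries whose labels conflict, a fit with only 1 library of shielded mice without LPS. The differences were then -1.25 for Cx3cr1, -1.71 for Ccl12, -0.68 for Mif, -0.47 for Gnai3, -0.53 for Adam17, 0.74 for Gng2, 0.98 for Grk6 and 0.90 for Rgs14.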

How the results depend on the processing

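Of 456 recomputed values of the 6 receptors, 410 kept their direction and their side of the threshold, 28 lost a call, 10 gained one and 8 changed sign. When the 2 libraries whose labels conflict were placed by the treatment field, edgeR called 0 genes for LPS in shielded mice (284 at unadjusted p under 0.05), 117 for LPS in unshielded mice, 0 between arms without LPS (809), 1464 after LPS and 0 for the difference of LPS effects (481). Ccr1 in shielded mice was then -0.10 (adjusted p = 0.94), Ccr2 after LPS -0.74 (0.457), and the Ccr2 difference of effects -0.45 (1). Without these libraries the counts were 8369 for LPS in shielded mice, 292 without LPS and 148 for the difference, which was 1571 without a low-count filter. Leaving out 1 library at a time gave 10725 to 13697 genes for LPS in shielded mice, 6219 to 7242 in unshielded mice, 1094 to 1661 between arms without LPS (lowest without unshielded library 3), 6362 to 11101 after LPS, and 1615 to 6391 for the difference (highest without shielded LPS library 3). Small values changed sign: between arms without LPS Ccr7 ranged from -0.33 to 0.28 (0.15 without shielded library 2, 0.28 without unshielded library 1) and Ccrl2 from -0.020 to 0.36 (lowest without unshielded library 1), and after LPS Ccr2 ranged from -0.74 (by the treatment field) to 0.48, with -0.067 without shielded LPS library 2 and -0.0050 without library 1. With a replicate block over all 12 libraries the counts were 13172, 8829, 2355, 9408 and 2891, and among the 6 receptors only the Cx3cr1 call without LPS changed. With the block in the shielded groups alone, chosen after seeing the data, it was 11809, and all 6 receptors passed. The cause of these changes was not tested. Depth limits Ccr7 without LPS most, at 26 to 55 counts a library.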
